A study of Mus musculus with 4 samples.

Results

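Nt5e, Entpd1, Adora2a, P2rx7 and Slc17a9 are 5 genes of the extracellular ATP and adenosine pathway, and they were followed here by name, out of 32285 gene features, in single-cell transcriptomes of mouse CD8 T cells. All 5 were present in the count matrices and had UMIs (unique molecular identifiers, 1 per captured RNA molecule) in every library. All 5 also passed the filter on low counts over all T cells. The cells were CD8 T cells positive for CD44, a marker of antigen-experienced cells, and for CD90.1, sorted from tumour-draining lymph nodes of C57BL/6 mice on day 14 after tumour implantation. The C6M9 group carries the label low affinity GP33 and the M9 group the label high affinity GP33; GP33 is a viral peptide presented to CD8 T cells. Each group had 2 libraries made with 10x Genomics 3′ chemistry, and the study's title is about T cell receptor engagement in progenitor exhausted CD8 T cells.

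Cells came from 35 mice for C6M9 and from 10 mice for M9, and the protocol calls the libraries of a group biological duplicates. Which mice went into which library, their age and the tumour line were not stated, and no single mouse can be traced. The library was therefore the replicate (n = 2 per group throughout), and SDs, SEs and p-values measure only the spread between these pools.

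ATP that leaves a cell acts as a danger signal outside it. The vesicular nucleotide transporter, encoded by Slc17a9, loads ATP into secretory vesicles. Outside the cell, CD39 (Entpd1) converts ATP and ADP to AMP, and CD73 (Nt5e) converts AMP to adenosine. P2RX7 is an ion channel opened by high concentrations of ATP, and in mouse T cells it is known for shaping the survival of memory and tissue-resident cells. The adenosine receptor encoded by Adora2a couples to Gs, raises cAMP and restrains T cell activation. CD39 and CD73 on lymphocytes are well-known sources of adenosine in tumours and lymphoid tissue.

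Over the 4 libraries, 9923 T cells were kept. C6M9 replicates 1 and 2 had 2889 and 1734 T cells with 67672214 and 60695583 UMIs, and M9 replicates 1 and 2 had 4101 and 1199 T cells with 71708108 and 32311461 UMIs. After thinning to 2000 UMIs per cell, 62.5% ± 0.52 of C6M9 cells and 61.6% ± 0.26 of M9 cells had a Cd8a UMI (SD, n = 2), and 87.1% and 82.8% had one of Cd8b1, the other CD8 chain. All 10 genes of the CD8 T cell list were detected in each library. Of 7 marker lists of other cells, the B cell list (15 genes, none at 0) had the second highest sum, at 350 and 381 CPM (UMIs per 1000000) in C6M9, against 324 and 319 CPM in M9. The gamma delta T list summed to 393 and 420 CPM in C6M9, against 415 and 412 CPM in M9, and 7 and 7 in C6M9, against 4 and 4 in M9, of the 14 myeloid genes were at 0. The progenitor exhausted list summed to 1005 and 1022 CPM in C6M9, against 1705 and 1692 CPM in M9. The libraries shared between 0 and 4 cell barcodes per pair.

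The mix of T cell classes differed between the groups, which touches every value over all T cells. Cells were clustered without the 5 genes and without the other pathway genes described below, and 5 classes could be named from markers. Memory-like cells (Ccl5, Il7r, S1pr1) made up 39.6% and 34.9% of T cells in C6M9, against 4.32% and 9.59% in M9. TCR-activated-like cells (Tnfrsf4, Egr3, Cd83) made up 1.94% and 1.85% in C6M9, against 19.1% and 14.4% in M9. Cluster 0, led by Izumo1r, Ctla2a, Gzmk and Sox4, made up 4.53% and 5.02% in C6M9, against 37.0% and 30.4% in M9. The other classes were interferon-like, effector-like (led by Klre1, Klrc2 and Klrc1) and cycling-like cells. Cluster 5, led by Gzma, Ifitm1 and Gzmb, and cluster 7, led by Xcl1, Tnfrsf9 and Srm, are called by their cluster numbers. Cluster 5 made up 4.71% and 3.86% of T cells in C6M9, against 2.76% and 1.00% in M9. For cluster 7 the shares were 2.87% and 4.38% in C6M9, against 8.68% and 6.17% in M9.

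Over all T cells, Nt5e was the 1 gene of the 5 that passed the test, lower in C6M9. Slc17a9 was higher and P2rx7 lower in both C6M9 libraries than in both M9 libraries, but neither passed. Adora2a and Entpd1 overlapped between the groups. Of 13654 genes tested with edgeR's quasi-likelihood test, 5.63% passed at an adjusted p of 0.05 (Benjamini-Hochberg over all genes), 4.04% lower and 1.59% higher in C6M9. Both C6M9 libraries stood on 1 side of both M9 libraries for 55.7% of the genes, so the 3 non-overlapping genes of 5 are near the share of all genes. A sum over cells does not tell fewer expressing cells from fewer molecules per cell. The median log2 difference of all genes was -0.02.

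**Figure D1:**
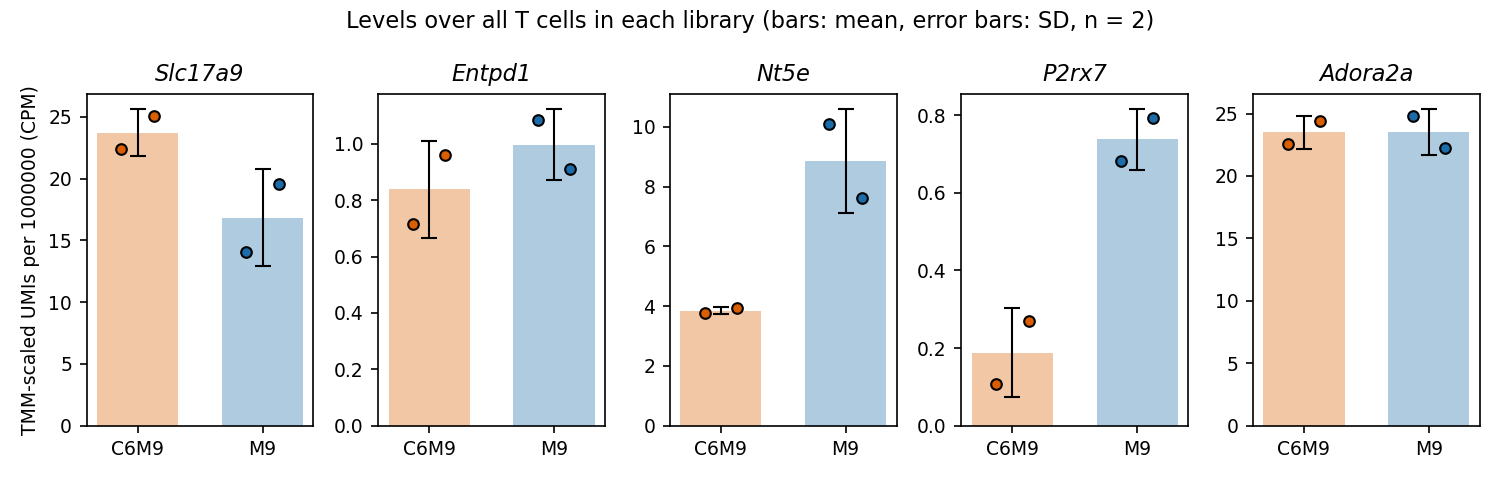
Each panel shows 1 gene, with its level over all T cells on the y axis in TMM-scaled UMIs per 1000000 (CPM). Points are libraries, bars are group means and error bars are SDs (n = 2). Nt5e lies near 3.85 CPM in both C6M9 libraries and above 7.6 CPM in both M9 libraries, and the Adora2a points of the groups overlap.

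Slc17a9 (chr2:180725263-180742280 on the plus strand, GRCm38), on the release side of the pathway, had 1467 and 1487 UMIs in C6M9, against 1010 and 668 in M9. That corresponded to 22.4 and 25.1 CPM in C6M9, against 14.1 and 19.6 CPM in M9 (CPM over all T cells are TMM-scaled). The C6M9 libraries lay close together and above both M9 libraries, of which replicate 2 was the nearer. The log2 difference was 0.51 ± 0.15 (SE), higher in 2 of 2 C6M9 libraries, and did not pass (adjusted p = 0.09996, edgeR). Without M9 replicate 2 it was 0.76 and passed (adjusted p = 0.00269, edgeR), and without M9 replicate 1 it was 0.30 (adjusted p = 0.117, edgeR). DESeq2 also called it (0.53, adjusted p = 0.0181).

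Entpd1, the CD39 gene (chr19:40612366-40741602, plus strand), was sparse in all libraries. It had 47 and 57 UMIs in C6M9, against 78 and 31 in M9, which gave 0.718 and 0.961 CPM in C6M9, against 1.09 and 0.910 CPM in M9. The groups overlapped, and the log2 difference was -0.27 ± 0.28 (SE, adjusted p = 0.608, edgeR). Its span holds 3 other annotated genes on the same strand, Gm16027, Gm8783 and AC166063.1, so counts of the 4 may not be cleanly divided.

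Nt5e, the CD73 gene (chr9:88327197-88372092, plus strand), had 247 and 233 UMIs in C6M9, against 724 and 260 in M9. It reached 3.77 and 3.93 CPM in C6M9, against 10.1 and 7.63 CPM in M9. The C6M9 libraries nearly coincided, and both M9 libraries stood above them. The mean was 3.85 ± 0.11 CPM in C6M9 and 8.86 ± 1.74 CPM in M9 (SD, n = 2 each), and the log2 difference was -1.21 ± 0.15 (SE, adjusted p = 0.00621, edgeR). Nt5e kept its call in each of the 14 alternative settings run over all T cells, with log2 differences between -1.39 and -0.75. The smallest difference came when cluster 0 and TCR-activated-like cells were left out (-0.75, adjusted p = 0.0366, edgeR), a setting chosen after seeing the data. Memory-like cells gave 29.0% of the C6M9 Nt5e UMIs and 3.35% of the M9 ones, while cluster 0 gave 5.42% in C6M9, against 32.5% in M9, and TCR-activated-like cells 4.38% in C6M9, against 27.7% in M9. Their shares of the cells were 37.9% in C6M9 and 5.51% in M9 for memory-like cells. For cluster 0 they were 4.72% in C6M9 and 35.5% in M9, and for TCR-activated-like cells 1.90% in C6M9 and 18.1% in M9. The UMI shares thus largely follow the mix of classes.

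The RefSeq promoter of Nt5e is printed here because it is the promoter of the 1 gene of the 5 that differed over all T cells. It covers 250 bases before and 50 after the annotated start, on the plus strand at chr9:88327359-88327658 of GRCm38.p6. The start is RefSeq's, which lies downstream of the GENCODE start given above, so the window lies within the gene as GENCODE annotates it. The capitals mark a GC box, a motif known to be bound by Sp family factors.
Nt5e promoter: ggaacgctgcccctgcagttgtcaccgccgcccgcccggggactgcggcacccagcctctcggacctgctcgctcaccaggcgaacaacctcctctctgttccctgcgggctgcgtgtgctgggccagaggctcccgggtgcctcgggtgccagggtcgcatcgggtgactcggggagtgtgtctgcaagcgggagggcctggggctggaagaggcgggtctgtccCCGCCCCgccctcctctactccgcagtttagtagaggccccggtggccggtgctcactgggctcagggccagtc
The sequence is 71.0% G and C with 23 CpG dinucleotides, against medians of 52.7% and 7 over 32851 mouse promoters of the same length. The GC box, searched as CCGCCCC on both strands, was found once, at bases 227 to 233, and 23.2% of all promoters held it. None of the other motifs searched on both strands was found in this window: CRE (TGACGTCA, in 1.79% of all promoters), AP-1 (TGANTCA, 7.81%), EGR (GCGTGGGCG, 0.612%), E-box (CACGTG, 7.15%), NR4A (AAAGGTCA, 1.51%) and TCF/LEF (CTTTGAT, 3.73%).

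P2rx7, the ATP-gated channel gene (chr5:122643911-122691432, plus strand), had 7 and 16 UMIs in C6M9, against 49 and 27 in M9. Its level was 0.107 and 0.270 CPM in C6M9, against 0.682 and 0.792 CPM in M9. The C6M9 libraries were both below the M9 libraries, on few molecules. The log2 difference was -1.96 ± 0.47 (SE), lower in 2 of 2 C6M9 libraries, and just missed the threshold (adjusted p = 0.0539, edgeR). Without M9 replicate 1 the call was made (-2.05, adjusted p = 0.0493, edgeR), and without C6M9 replicate 1 the difference was -1.43 (adjusted p = 0.371, edgeR). A microRNA gene, Mir8115, lies within its span on the same strand.

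Adora2a, the adenosine receptor gene (chr10:75316877-75334784, plus strand), had 1478 and 1448 UMIs in C6M9, against 1781 and 758 in M9. It had 22.6 and 24.4 CPM in C6M9, against 24.8 and 22.2 CPM in M9. The C6M9 libraries lay between the M9 libraries. The log2 difference was -0.01 ± 0.10 (SE, adjusted p = 0.979, edgeR), so the groups differed by less than the spread between libraries. The other adenosine receptor genes, Adora1, Adora2b and Adora3, did not pass the filter on low counts in any comparison.

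The share of cells with a UMI was compared at equal depth, because the median T cell had 13993 and 21476 UMIs in C6M9, against 13205 and 20024 in M9. At 5000 UMIs per cell, 2.10% and 1.80% of C6M9 cells had an Nt5e UMI, against 5.58% and 4.68% of M9 cells, and the groups did not overlap. The exact 95% binomial interval of Nt5e reached up to 2.69% in C6M9 replicate 1 and down to 3.55% in M9 replicate 2; such intervals cover counting error only. At the 2000 UMIs set as the main depth, which 24 T cells did not reach, the shares were 1.00% and 1.62% in C6M9, against 2.57% and 2.01% in M9. There the intervals of replicate 2 overlapped, at 1.08% to 2.34% in C6M9 and 1.29% to 2.98% in M9. Without thinning, they were 7.17% and 10.3% in C6M9, against 13.4% and 14.5% in M9. With 2 libraries in each group the smallest two-sided p of the exact permutation test is 0.333, which was its value here. Slamf6 encodes a surface receptor of progenitor exhausted cells. At 2000 UMIs, 1.24% and 2.05% of C6M9 cells with a Slamf6 UMI also had an Nt5e UMI, against 2.72% and 2.39% of M9 cells with one. Among cells without a Slamf6 UMI the shares were 0.853% and 1.34% in C6M9, against 2.32% and 1.45% in M9, lower than with Slamf6 in all 4 libraries. The same order held in all 4 libraries for cells with and without a UMI of Il7r or of Izumo1r, so it was not particular to Slamf6; for Tnfrsf4, Mki67 and Klre1 the order differed between libraries.

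Adora2a UMIs were found in 11.1% and 11.1% of C6M9 cells, against 12.02% and 11.9% of M9 cells at 5000 UMIs. At 2000 UMIs the groups overlapped, at 4.36% and 4.40% in C6M9, against 5.25% and 4.36% in M9. Slc17a9 was found at 5000 UMIs in 11.8% and 11.96% of C6M9 cells, against 7.35% and 11.7% of M9 cells, so that M9 replicate 2 was nearly level with C6M9. At 2000 UMIs, 4.50% and 4.52% of C6M9 cells held it, against 3.13% and 5.78% of M9 cells, and the groups overlapped.

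The shares of Entpd1 and P2rx7 rest on few cells and were set beside a gene of other cells. At 2000 UMIs, Entpd1 was found in 0.173% and 0.290% of C6M9 cells, against 0.0978% and 0.335% of M9 cells. The B cell gene Cd79a, which T cells should lack, was found in 0.0346% and 0.290% of the same C6M9 cells, against 0.122% and 0.168% of the M9 cells. Entpd1 was above Cd79a in C6M9 replicate 1 and M9 replicate 2 and at or below it in the other 2 libraries. In those 2 libraries its share over all T cells at this depth is not read as expression. The Entpd1 levels by class below use all UMIs. P2rx7 was found in 0 of 2887 and 0 of 1726 C6M9 cells, which allows shares of up to 0.104% and 0.174% of cells with a UMI at that depth alone. In M9 it was found in 0.196% and 0.503% of cells, above Cd79a in both libraries. At 5000 UMIs the P2rx7 shares overlapped, at 0.0349% and 0.348% in C6M9, against 0.444% and 0.255% in M9.

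Levels by class are CPM of each class sum, TMM-scaled over all class sums together. They are a description with no test, since the classes were made from the same cells. Nt5e was highest on average in TCR-activated-like cells, with 8.63 and 11.9 CPM in C6M9, against 14.8 and 15.6 CPM in M9. Cluster 0 followed, with 12.2 and 4.88 CPM in C6M9, against 14.2 and 8.55 CPM in M9. The means of the 4 libraries ran from 12.7 CPM in TCR-activated-like cells through 9.95 in cluster 0, 9.28 in effector-like, 8.80 in interferon-like and 7.03 in memory-like cells. They ended at 4.07 in cluster 7, 3.56 in cycling-like cells and 1.95 in cluster 5. No neighbours among the first 5 classes differed beyond their SDs over libraries, which were 1.94 to 5.73 CPM. Cluster 5 was at 2.31 and 1.79 CPM in C6M9, against 1.65 and 2.07 CPM in M9, below the mean of every other class.

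Entpd1 had its highest level in cluster 5, with 3.13 and 3.77 CPM in C6M9, against 2.82 and 4.13 CPM in M9. In every other class its mean was between 0.474 and 1.10 CPM. The lowest library of cluster 5, at 2.82 CPM, was above the highest library of any other T cell class, at 2.44 CPM. Cluster 5 held 4.39% of the C6M9 cells and 42.3% of the C6M9 Entpd1 UMIs, and 2.36% of the M9 cells and 14.7% of the M9 Entpd1 UMIs. These were 44 UMIs in C6M9 and 16 UMIs in M9. The leading genes of the cluster include Havcr2, which encodes the inhibitory receptor TIM-3. The median cell of cluster 5 had 44780 UMIs, against 44824 in the deepest, a cycling-like cluster, and the part of depth in this was not tested. At 2000 UMIs, Entpd1 was found in 2.97% ± 2.13 of the C6M9 cells of cluster 5 and 4.17% ± 5.89 of the M9 cells (SD, n = 2). The M9 value is unsteady, since cluster 5 had only 12 cells in M9 replicate 2. In every other T cell class the mean share of each group was at most 0.575%. The B cell-like cells were left out of the T cells. They had Entpd1 at 3.13 and 6.00 CPM in C6M9, against 8.56 and 6.71 CPM in M9. These CPM were not TMM-scaled, unlike those of the T cell classes. They rest on 3 and 7 UMIs in C6M9, against 3 and 2 UMIs in M9. In cluster 5 at 2000 UMIs, the B cell gene Igkc was found in 0.735% and 1.49% of C6M9 cells, against 1.77% and 8.33% of M9 cells, on 1, 1, 2 and 1 cells, and over all T cells in 0.381% and 0.348% in C6M9, against 0.293% and 0.168% in M9. The B cell gene Ms4a1 was found in no cell of cluster 5 and Cd79a in 1 cell, of C6M9 replicate 1. The part of B cell RNA in the Entpd1 level was not tested.

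Adora2a was highest in effector-like cells, at 35.9 and 35.1 CPM in C6M9, against 38.7 and 34.0 CPM in M9. Cluster 0 came next at 31.2 and 28.0 CPM in C6M9, against 29.0 and 26.6 CPM in M9. Every effector-like value was above every cluster 0 value, and the other classes averaged 19.2 to 23.9 CPM. The lowest mean, 19.2 CPM, was in cluster 5, led by Gzma and Gzmb, which are also on the effector marker list. There M9 replicate 2 had 8.27 CPM, on 8 UMIs from 12 cells. Effector-like here thus means the cells led by Klre1, Klrc2 and Klrc1, not those richest in granzymes.

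Slc17a9 was highest in memory-like cells, at 39.1 and 39.7 CPM in C6M9, against 34.3 and 61.4 CPM in M9. It was the tenth gene by fold among the leading genes of that cluster, although it had been kept out of the clustering. Memory-like cells of M9 replicate 2 stood apart from the other 3 libraries, on 125 UMIs from 115 cells. Interferon-like cells followed, at 31.6 and 29.9 CPM in C6M9, against 22.3 and 25.95 CPM in M9, and the lowest memory-like library lay above the highest interferon-like one. The other classes averaged 14.4 to 22.9 CPM.

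P2rx7 had too few molecules for an order of classes. Its mean was 1.08 CPM in cluster 0, where the C6M9 libraries had 0 and 1 UMIs and the M9 libraries 21 and 18 UMIs. Memory-like cells had 0.372 and 0.463 CPM in C6M9, against 1.05 and 0.983 CPM in M9, on 5, 5, 2 and 2 UMIs. Cluster 5 had 0 UMIs in all 4 libraries.

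**Figure D2:**
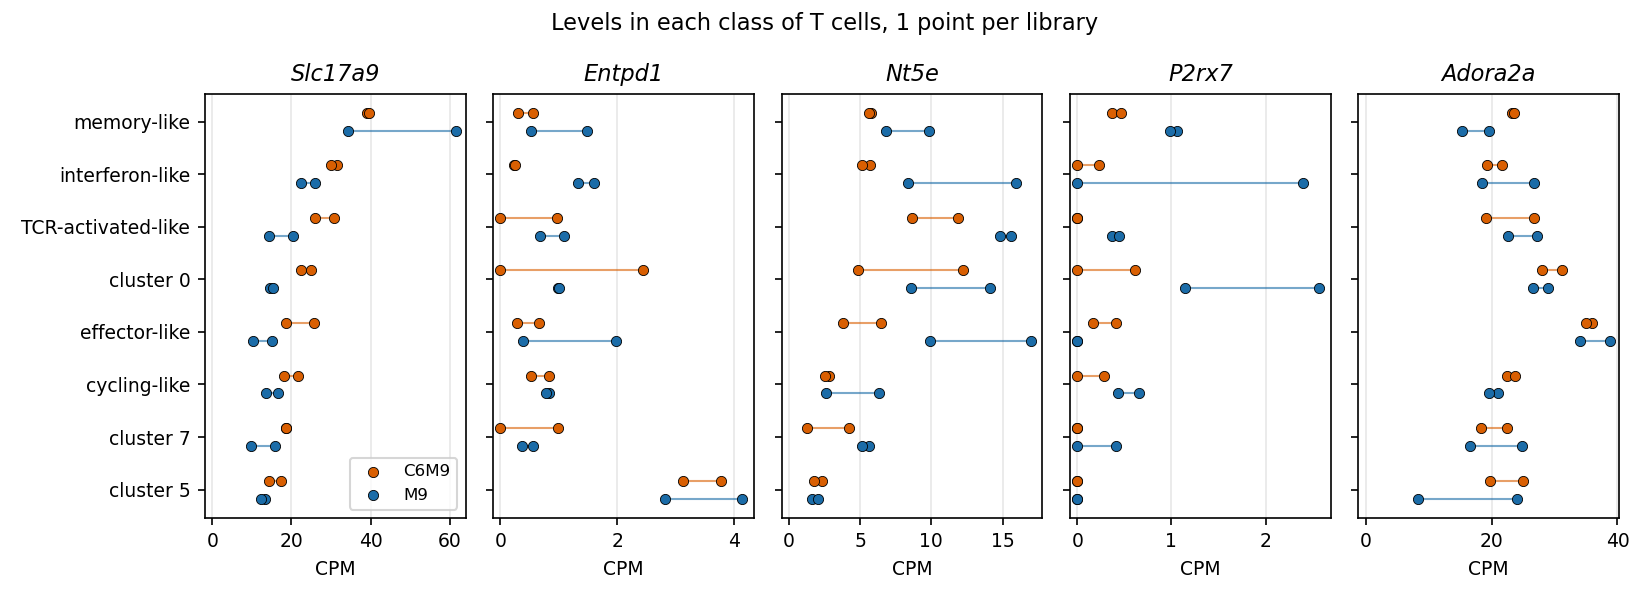
Panels show the 5 genes, with TMM-scaled CPM on the x axis and T cell classes on the y axis. Each point is 1 library and a line joins the 2 libraries of a group. Entpd1 peaks in cluster 5, Adora2a in effector-like cells and Slc17a9 in memory-like cells, where M9 replicate 2 reaches 61.4 CPM.

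The group difference was then tested within the 6 classes that had at least 50 cells in every library. Nt5e, Adora2a and Slc17a9 passed the filter on low counts in all 6 classes, Entpd1 in cycling-like cells alone and P2rx7 in none. No gene of the 5 passed the test within any class. Of all genes tested, 0.254% passed in cluster 0 (0.142% higher and 0.112% lower in C6M9), 4.18% in cluster 7 (1.77% higher and 2.41% lower) and 1.47% in cycling-like cells (0.783% higher and 0.691% lower). In effector-like cells 0.846% passed (0.214% higher and 0.632% lower), in interferon-like cells 1.09% (0.201% higher and 0.889% lower) and in memory-like cells 0.0581% (0.00968% higher and 0.0484% lower). The groups did not overlap for 2 of the 3 or 4 genes tested in each class, against 41.5% of all genes in cluster 0, 44% in cluster 7, 44.7% in cycling-like, 46% in effector-like, 41.7% in interferon-like and 36.7% in memory-like cells. Nt5e had a negative log2 difference in 6 of 6 classes, between -1.32 and -0.45. Its unadjusted edgeR p was under 0.05 in 3 of them, effector-like, interferon-like and cycling-like cells. That also held for 1432 of 10288 genes in effector-like, 1102 of 9444 in interferon-like and 1635 of 12007 in cycling-like cells. Slc17a9 had an unadjusted edgeR p under 0.05 in 4 classes and Adora2a in none. With 1 library left out, Nt5e in cycling-like cells ran from -1.26 (adjusted p = 0.00396, without M9 replicate 2, edgeR) to -0.0028 (without M9 replicate 1). In cluster 7 it ran from -2.15 without C6M9 replicate 2 to -0.39 without C6M9 replicate 1. In cluster 0 it was 0.0904 without C6M9 replicate 2 and -0.00728 without M9 replicate 1. In memory-like cells it ran from -0.81 without M9 replicate 1 to -0.29 without M9 replicate 2.

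In effector-like cells, with TMM scaling within the class, Nt5e had 3.99 and 6.83 CPM in C6M9, against 10.6 and 18.5 CPM in M9. The groups did not overlap, and the log2 difference was -1.32 ± 0.32 (SE, adjusted p = 0.0651, edgeR). In interferon-like cells it had 5.64 and 5.05 TMM-scaled CPM in C6M9, against 16.1 and 8.48 CPM in M9, a log2 difference of -1.21 ± 0.34 (SE, adjusted p = 0.117, edgeR). In cluster 0 the libraries overlapped, and the log2 difference was -0.45 ± 0.39 (SE, adjusted p = 0.783, edgeR). Within effector-like cells the call was made without C6M9 replicate 2 (-1.79, adjusted p = 2.99e-04, edgeR) and without M9 replicate 1 (-1.73, adjusted p = 0.0155, edgeR). In interferon-like cells it was made without M9 replicate 2 (-1.58, adjusted p = 0.0260, edgeR), and the difference was -0.65 without M9 replicate 1. Adora2a had log2 differences between -0.18 and 0.38 over the 6 classes, positive in 3 and negative in 3, with adjusted p between 0.601 and 0.9003 in edgeR.

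The share of cells with an Nt5e UMI did not follow these signs in every class and at each depth. In cluster 0 at 2000 UMIs it was 3.82% and 3.45% in C6M9, against 2.97% and 1.92% in M9, on 5 and 3 C6M9 cells, against 45 and 7 M9 cells. At 5000 UMIs cluster 0 gave 3.88% and 2.30% in C6M9, against 6.95% and 5.54% in M9, the opposite order. TCR-activated-like cells gave 3.57% and 9.38% in C6M9, against 2.17% and 2.89% in M9 at 2000 UMIs, on 2 and 3 C6M9 cells. At 5000 UMIs they gave 5.36% and 0% in C6M9, against 5.87% and 8.09% in M9. In cluster 5 the mean Nt5e share was higher in C6M9 at both depths, on 3 or 4 C6M9 cells. In cycling-like, effector-like, interferon-like and memory-like cells the mean share was lower in C6M9 at both depths, and in cluster 7 it was higher at 2000 UMIs (1.32% in C6M9 and 0.847% in M9) and lower at 5000 (1.92% in C6M9 and 3.22% in M9).

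With every library given the same mix of classes, Nt5e averaged 5.80 ± 0.62 CPM in C6M9 and 9.41 ± 0.73 CPM in M9 (SD, n = 2 each). The log2 ratio of these means was -0.70, and the edgeR difference over all T cells as they came was -1.21. These are unlike measures. The ratio weights each class by its number of cells, while in the summed UMIs deeper cells count more. The step from one to the other therefore does not measure the class mix alone. P2rx7 had a ratio of -1.96 after this step, Entpd1 of -0.50, Slc17a9 of 0.25 and Adora2a of 0.11. These are descriptions with no test.

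Whether the group difference varied between classes was tested by the class by group terms of a fit over all class sums. Slc17a9 passed (F = 5.10, adjusted p = 0.0310, edgeR), among 5.11% of 10995 genes that did. It was higher in C6M9 in 5 of 6 classes, with log2 differences up to 0.84 ± 0.23 (SE) in effector-like cells, and had -0.33 ± 0.18 (SE) in memory-like cells. None of these passed alone in the main fit, but some alternative settings called it in effector-like cells, cluster 7 and memory-like cells. With 1 library left out it ran from 0.54 to 1.10 in effector-like cells and from 0.13 to 0.91 in cluster 7. In memory-like cells it ran from -0.68 to 0.16. Without memory-like cells the test of class by group terms was not passed (F = 1.38, adjusted p = 0.592, edgeR). Without M9 replicate 2, whose memory-like cells stood apart, it was not passed either (adjusted p = 0.450, edgeR), nor without C6M9 replicate 2 (adjusted p = 0.265, edgeR). Nt5e (adjusted p = 0.831), Adora2a (0.537) and P2rx7 (0.658) did not pass in edgeR, and Entpd1 was not in the fit.

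**Figure D3:**
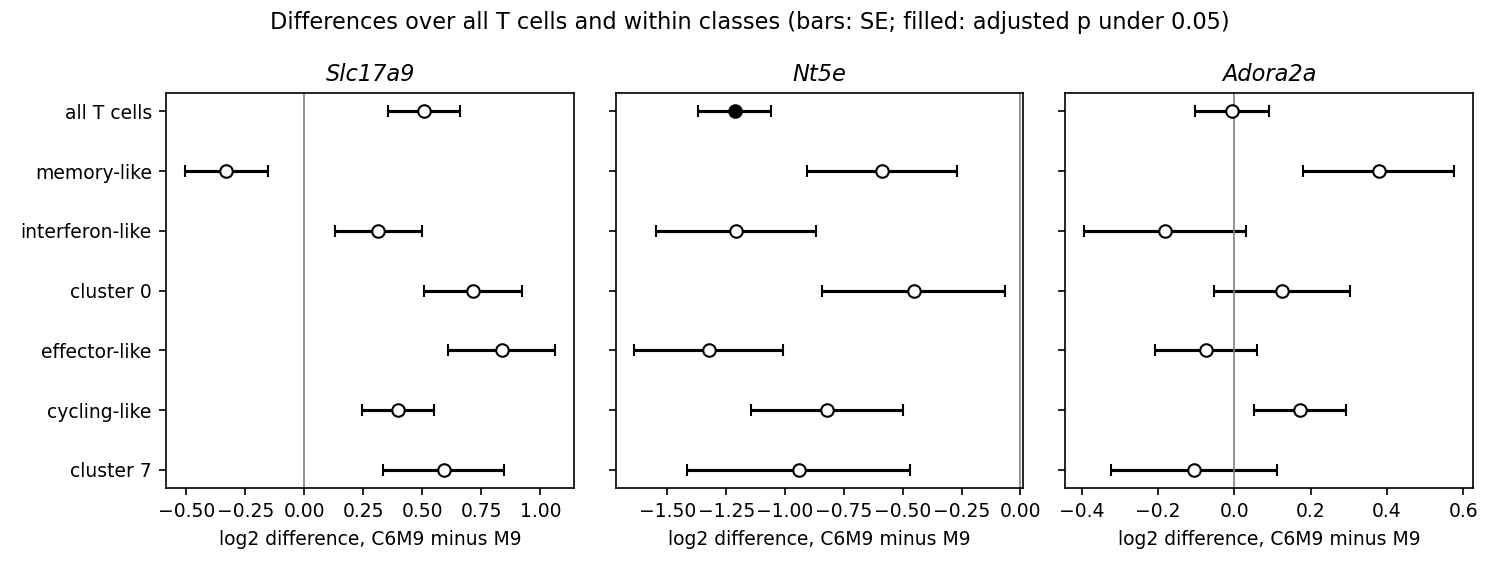
The x axis is the log2 difference, C6M9 minus M9, and the y axis lists all T cells and the 6 classes tested. Points are edgeR estimates with SE bars, and a filled point has an adjusted p under 0.05. Nt5e lies left of 0 in every row, and Slc17a9 lies right of 0 except in memory-like cells (-0.33).

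Single cells with UMIs of 2 of the genes were counted at 5000 UMIs, per library and with no test. CD39 and CD73 act in sequence, yet Nt5e and Entpd1 UMIs were found together in only 1 and 0 C6M9 cells, against 2 and 0 M9 cells. Independent detection would give 0.147 and 0.144 cells in C6M9, against 1.17 and 0.328 cells in M9, so these counts are too low to compare. Nt5e and Adora2a were found together in 13 and 7 C6M9 cells, against 28 and 4 M9 cells, where independence gave 6.69 and 3.45 in C6M9, against 27.2 and 6.55 in M9. Adora2a and Slc17a9 were found together in 33 and 16 C6M9 cells, against 34 and 16 M9 cells. All 4 counts were below the 37.8 and 23.0 of independence in C6M9 and the 35.8 and 16.4 in M9, in M9 by less than 2 cells.

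The rest of the pathway was read from 91 further genes in 9 lists. Of these, 89 were in the files and 62 were tested over all T cells; 3 rose and 5 fell in C6M9, against 1.59% and 4.04% of all genes. The median log2 difference was 0.01 for these genes and -0.02 for all genes. Among 14 tested genes of adenosine removal and uptake, 1 rose and 2 fell. Ada, adenosine deaminase, had 6.23 and 5.82 CPM in C6M9, against 4.11 and 3.05 CPM in M9 (log2 difference 0.73 ± 0.16 SE, adjusted p = 0.0437, edgeR). Adk, the kinase that returns adenosine to AMP inside the cell, had 71.3 and 72.5 CPM in C6M9, against 112 and 97.7 CPM in M9 (-0.54 ± 0.09 SE, adjusted p = 0.0166, edgeR). Slc29a1, an equilibrative nucleoside transporter, had 34.0 and 32.8 CPM in C6M9, against 53.4 and 42.5 CPM in M9 (-0.53 ± 0.12 SE, adjusted p = 0.0409, edgeR). The genes of highest level in this list that did not pass were Dpp4 (log2 difference -0.02) and Pnp (0.26), which encode the surface peptidase CD26 and purine nucleoside phosphorylase.

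Cd38, which encodes an ectoenzyme that consumes NAD+, fell and was the 1 call among 5 tested genes of NAD+ ectoenzymes and ADP-ribosyltransferases. It had 3.19 and 3.64 CPM in C6M9, against 7.69 and 7.51 CPM in M9, a log2 difference of -1.16 ± 0.13 (SE, adjusted p = 0.00377, edgeR). Art2b, whose mouse product modifies P2RX7, and Art3 did not pass, with log2 differences of -0.49 and -1.17. Among 8 tested further ectonucleotidase genes, Enpp2 fell (-1.50 ± 0.28 SE, adjusted p = 0.0234, edgeR) and Entpd5 rose (0.45 ± 0.09 SE, adjusted p = 0.0318, edgeR). Enpp2 had 1.21 and 0.843 CPM in C6M9, against 3.45 and 2.26 CPM in M9; its product autotaxin acts mainly on lysophospholipids. Entpd5 had 19.4 and 18.5 CPM in C6M9, against 13.5 and 14.2 CPM in M9, and its product works in the endoplasmic reticulum. Cant1 (0.11) and Entpd6 (-0.01) did not pass.

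Among 5 tested genes of ATP release channels, Lrrc8a, an essential subunit of the volume-regulated anion channel, rose. It had 20.6 and 20.5 CPM in C6M9, against 13.1 and 14.97 CPM in M9, a log2 difference of 0.56 ± 0.10 (SE, adjusted p = 0.0213, edgeR). The pannexin channel gene Panx1 (0.18) and Calhm6 (-0.09) did not pass. Of 8 phosphodiesterase genes tested, Pde4d, which encodes an enzyme that degrades cAMP, fell (-0.51 ± 0.12 SE, adjusted p = 0.0478, edgeR), at 7.80 and 9.001 CPM in C6M9, against 12.6 and 11.2 CPM in M9. Pde7a (0.15) and Pde3b (-0.11) did not pass. None of 17 tested cAMP signalling genes passed; Gnas, which encodes Gs alpha, differed by 0.03 and the anchoring protein gene Akap13 by -0.08. None of the purinergic receptor genes beside P2rx7 passed either, with P2rx4 at -0.23, P2ry10 at -0.30 and P2ry14 at 0.21.

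Of the 8 pathway genes called over all T cells, Cd38 was called whichever library was left out. Enpp2 was not called without C6M9 replicate 2 (-1.26, adjusted p = 0.0867, edgeR). Ada, Adk, Slc29a1, Lrrc8a, Entpd5 and Pde4d were called neither without C6M9 replicate 1 nor without C6M9 replicate 2, with adjusted p between 0.0804 for Adk and 0.340 for Pde4d in edgeR. Slc29a1 (-0.32, adjusted p = 0.0561) and Pde4d (-0.39, adjusted p = 0.0879) also lost the call without M9 replicate 1 in edgeR.

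Within classes, 4 of 44 tested genes of these lists passed in cluster 7, 2 of 56 in cycling-like cells and 1 of 45 in interferon-like cells, and none in the other 3 classes tested. In cluster 7, Adk (-0.62), Slc29a1 (-0.71) and Enpp2 (-2.37) fell and Pde2a (1.93) rose, with adjusted p between 0.00339 and 0.0204 in edgeR. Cluster 7 was the class with the highest share of calls of all genes, 4.18%. Pde2a, which encodes a phosphodiesterase stimulated by cGMP, had 5.20 and 12.1 CPM in C6M9, against 1.99 and 3.06 CPM in M9 there. In cycling-like cells, Pde2a (1.29) and Ampd1 (2.18), an AMP deaminase gene, rose. In interferon-like cells, Adk fell by 0.67 on the log2 scale.

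**Figure D4:**
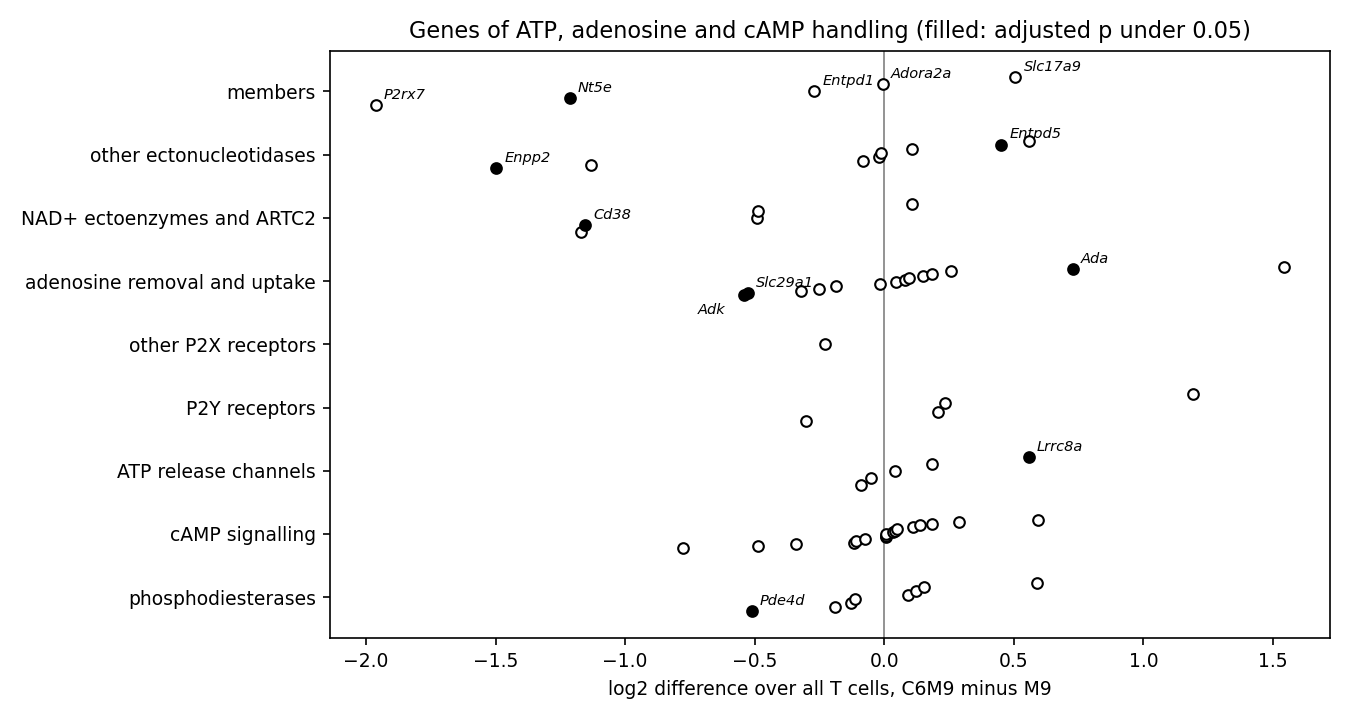
Each point is a gene that passed the filter on low counts, with its log2 difference over all T cells, C6M9 minus M9, on the x axis and the gene lists on the y axis. Filled points had an adjusted p under 0.05 in edgeR. The row named members holds the 5 genes. The filled points farthest left are Enpp2 (-1.50), Nt5e (-1.21) and Cd38 (-1.16).

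The genes most like each of the 5 were taken over 30 sums of library and class with at least 50 cells, among 7422 other genes of at least 10 CPM on average. The measure was Pearson's r of log2(CPM + 1), a description over sums that share libraries, depth and class mix. Slc17a9 was most like Arl4c (0.86), Sema4b (0.85) and Hsd11b1 (0.82), of which Arl4c is among the leading genes of the memory-like cluster. Nt5e was most like Wls (0.88), Lmbrd1 (0.86) and Dcaf8 (0.85), and Adora2a most like Gm17745 (0.76), Ndfip2 (0.76) and Afmid (0.76). Entpd1 and P2rx7 were too sparse to read, with Impad1 (0.72) and Cirbp (0.70) first. Between the 5 genes themselves, r lay between -0.30 for Adora2a with Slc17a9 and 0.41 for Nt5e with P2rx7.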

How the data were processed

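The authors deposited 1 matrix of raw UMI counts per library, genes by cell barcodes, made with Cell Ranger 6.0.0 on mm10 per the submitters' processing notes; whether intronic reads were counted is not given in the sources used here. The 5 genes and the gene lists were chosen with earlier results of these data known. The genes named were all 5, every listed pathway gene called, up to 2 uncalled genes of highest level per list, and the 3 most alike genes per member. Of 11113 barcodes, 10324 passed minimums of 500 genes and 1000 UMIs and a mitochondrial share of no more than 10%. Scrublet in scanpy 1.11.5 marked under 0.5% of cells, so the highest scores were left out at 0.8% per 1000 barcodes (277 cells). Cells were clustered on 2000 variable genes (30 components, 15 neighbours, Leiden resolution 0.6, seed 7). A class name needed 3 markers among the 10 leading genes, a minimum set after the clusters were seen; 124 B cell-like cells, which also held T cell UMIs, were left out. UMIs were summed per library, and the difference C6M9 minus M9 was tested by quasi-likelihood in edgeR 4.0.16 (R 4.3.3) after TMM scaling and filterByExpr, two-sided at an adjusted p of 0.05, with DESeq2 1.42.0 as an alternative; the tests were tried on simulated counts. TCR-activated-like cells (32 in C6M9 replicate 2) and cluster 5 (12 in M9 replicate 2) had under 50 cells in a library and were not tested. The main fit did not pair libraries by replicate number, and whether like-numbered libraries were processed together is not known here. Median UMIs per T cell were 13993 in C6M9 and 13205 in M9 for replicate 1, and 21476 and 20024 for replicate 2. Coordinates are from GENCODE mouse release M21 (32158 of 32285 features matched by identifier). Promoters are from RefSeq, where Nt5e, Entpd1 and P2rx7 had an entry.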

Additional observations from a re-analysis of the deposited data

Results flagged for a closer look

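The test of class by group terms in edgeR, for a difference that varies between classes, was passed by 4 of the genes described. Slc17a9 had an adjusted p of 0.0310, with positive log2 differences in 5 classes and -0.33 in memory-like cells. Its F was 5.10, against 2.37 without M9 replicate 2 and 1.38 without memory-like cells (adjusted p = 0.592, edgeR). Adk had an adjusted p of 0.00788, with log2 differences of -0.67 in interferon-like cells, -0.62 in cluster 7 and -0.03 in cluster 0. Pde2a had an adjusted p of 0.00100, with 1.93 in cluster 7, 1.29 in cycling-like cells and -0.11 in cluster 0. Pde3b had an adjusted p of 0.0328, with 0.23 in cycling-like cells and -0.38 in cluster 0. Of all 10995 genes in that fit, 5.11% passed. The 4 genes were flagged only for passing and were not tested against that share. Adk, Pde2a and Pde3b were not followed in other settings of this fit. With 2 libraries per group, no library could be tested as standing apart from its group.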

How the results depend on the processing

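The depth limits Entpd1 and P2rx7, whose UMIs number 7 to 78 per library, and 2 libraries per group limit every test. Nt5e over all T cells was called in each alternative run. Adora2a, at -0.01, changed sign without passing with RLE scaling (0.00844), DESeq2 (0.0179), no filter (0.00822), the stricter cell filter (0.0285), without cluster 5 (0.00587), without cluster 0 and TCR-activated-like cells (0.123), and ran from -0.0746 to 0.107 with 1 library left out. P2rx7 was called with RLE scaling (-1.95), no filter (-1.95), the stricter cell filter (-2.28) and without cycling-like cells (-1.86), and ran from -2.75 to -1.43 with 1 library left out. Slc17a9 was called with DESeq2 (0.53) and no filter (0.52), and ran from 0.30 to 0.76 with 1 library left out. With a replicate block, P2rx7 (-2.04, adjusted p = 0.0361, edgeR) and Slc17a9 (0.51, adjusted p = 0.0349, edgeR) were called, and 840 genes were called over all T cells, against 769 without it; the like-numbered libraries correlated at -0.06 in their deviations. The block called 13 genes in cluster 0 and 26 in memory-like cells.

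Calls over all T cells were 1935 with no filter, 1191 without cycling-like cells, 271 without cluster 0 and TCR-activated-like cells, and 237 to 1402 with 1 library left out (237 without C6M9 replicate 1, 321 without C6M9 replicate 2, 1402 without M9 replicate 1, 1314 without M9 replicate 2). With no filter, calls were 95 in cluster 0, 717 in cycling-like, 331 in effector-like, 207 in interferon-like and 34 in memory-like cells. With DESeq2 they were 138 in cluster 7, 45 in interferon-like and 2 in memory-like cells. At Leiden resolution 1.0 they were 10 in cluster 0 and 151 in effector-like cells. With 1 library left out they ran from 44 to 104 in cluster 0, 229 to 404 in cluster 7, 133 to 499 in cycling-like, 90 to 233 in effector-like, 79 to 294 in interferon-like and 5 to 308 in memory-like cells. In the same settings Nt5e in cluster 0 ran from -1.23 to 0.0904, Adora2a in cluster 7 from -0.28 to 0.21, in effector-like cells from -0.14 to 0.03 and in interferon-like cells from -0.41 to 0.12, Entpd1 in cycling-like cells from -0.64 to 0.0491, and Slc17a9 in memory-like cells from -0.68 to 0.16.

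The difference in share of cells, in percentage points, was -0.97 for Nt5e at 2000 UMIs, -3.18 at 5000 and -5.21 unthinned. It was -0.20 at 5000 and 0.27 unthinned for Entpd1, 3.204 unthinned for Adora2a, -0.16 at 5000 and -1.03 unthinned for P2rx7, and 2.35 at 5000 and 12.5 unthinned for Slc17a9. With 1 library left out, P2rx7 ran from -0.50 to -0.20. The class-standardised log2 ratio then ran from -1.19 to -0.0376 for Entpd1, -2.93 to -1.39 for P2rx7 and 0.00759 to 0.54 for Slc17a9. Genes passing the class by group terms numbered 928 with no filter and 245 to 528 with 1 library left out, and F for Slc17a9 was 1.38 without memory-like cells and 2.37 to 6.39 with 1 library left out. The settings that leave out classes, and all of those for the class by group terms, were chosen after seeing the data. The cause of these changes was not tested. Where a library was left out, the single library of its group was assumed to vary like the other group.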
